A study of Mus musculus with 84 samples.

Results

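The genes described here are 44 genes of synaptic vesicle release, taken by name from the 50686 genes of the count table. They comprise 15 synaptotagmins, the fusion proteins Stx1a, Vamp1, Vamp2 and Snap25, 3 complexins, 3 synapsins, 3 SV2 proteins, 4 Rab3 GTPases, 2 RIM and 3 Munc13 proteins, 3 vesicular glutamate transporters, the scaffolds Bsn and Pclo, and Syp and Synpr. All 44 were matched to a row of the table. They were followed in single vagal sensory neurons of C57BL/6 mice that had taken up the dye DiI (2%) from the airways and lungs. The labels form 1 group of 84 neurons, each picked and amplified by itself, and give neither an age, a sex nor a treatment.

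Transmitter release begins when calcium enters a nerve ending and binds a synaptotagmin on a docked vesicle. The vesicle protein synaptobrevin (Vamp1, Vamp2) then completes a fusion complex with syntaxin (Stx1a) and Snap25 on the plasma membrane, while complexins hold and release that complex and Munc13 and RIM proteins prepare the vesicle beforehand. Most of these proteins come from small families of related genes whose members differ in calcium affinity, kinetics or place of action, so the member that a neuron transcribes is part of its identity. In airway afferents this machinery serves the central endings in the brainstem, and the same cells also hold dense-core vesicles with peptides.

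A neuron was kept when its counts summed to at least 5000000, which left 72 of 84 neurons, with totals from 6732279 to 20668832. Values are given as CPM (the counts of a neuron scaled to a total of 1e6), and a gene is called detected at 10 CPM, or 67.3 counts where depth was lowest. Genes reaching that level numbered from 841 to 8870 per neuron, with a median of 5855.5. All 10 pan-neuronal markers reached 10 CPM in 50% of neurons or more. The 7 satellite glia markers together reached from 30.7 to 56626 CPM per neuron over the neurons without Prdm12, so libraries differed widely in these transcripts. No label names the animal, so neurons are not replicates: no p-value was computed, and intervals on shares are exact Clopper-Pearson 95% intervals that cover counting error only.

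A pair of contrasts runs through the values below. The first is between the 7 neurons with at least 10 CPM of Prdm12 and the others. Prdm12 is a transcription factor of neural crest-derived sensory neurons, which in the vagal ganglia form the jugular ganglion. Its level was 22.04 to 87.01 CPM (median 46.9) in those 7 and at most 9.13 CPM in the other 65, and 8.09% of its exon bases overlap the antisense gene Gm13425. The second contrast follows the number of genes detected, because the 65 others divide into 33 with at least 4722 genes (the number in the Prdm12 neuron with the fewest), called matched neurons here, and 32 with fewer. Genes detected had a median of 8091 (quartiles 7760.5 and 8169.5) in the 7 and 7837 (quartiles 6326 and 8322) in the matched neurons. The limit is thus a floor set by 1 neuron, AM304, and does not make these numbers equal.

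The promoters of 4 genes are printed first because they carry the main patterns: Syt6 and Sv2b were high and Synpr was low in the Prdm12 neurons, and Syn1 leads its family. The sequences are the 250 bases before the annotated start, from RefSeq on GRCm38.p6, in the direction of transcription. Syn1 is cut to the 164 bases that lie outside its GENCODE exons. Capitals mark exact matches on either strand to 5 motifs: TTCAGCACC (left arm of RE1, the element bound by the neuronal repressor REST), TGACGTCA (the cAMP response element), CACGTG (an E-box), TAATTA (a homeodomain core) and GGGGCGGGG (a GC box). Syt6 lies at chr3:103574995-103575244 (plus strand), Sv2b at chr7:75309263-75309512 (minus), Synpr at chr14:13284530-13284779 (plus) and Syn1 at chrX:20921005-20921168 (minus).

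Syt6: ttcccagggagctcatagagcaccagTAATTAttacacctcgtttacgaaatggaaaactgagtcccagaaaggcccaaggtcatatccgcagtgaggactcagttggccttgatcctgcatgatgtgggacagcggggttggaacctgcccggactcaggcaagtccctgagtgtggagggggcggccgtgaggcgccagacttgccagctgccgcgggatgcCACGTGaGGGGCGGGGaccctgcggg

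Sv2b: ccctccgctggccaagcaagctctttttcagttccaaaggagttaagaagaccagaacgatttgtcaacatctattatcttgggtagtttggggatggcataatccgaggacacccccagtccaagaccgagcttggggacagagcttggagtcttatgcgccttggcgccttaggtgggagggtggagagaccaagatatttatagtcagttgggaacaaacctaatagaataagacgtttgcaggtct

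Synpr: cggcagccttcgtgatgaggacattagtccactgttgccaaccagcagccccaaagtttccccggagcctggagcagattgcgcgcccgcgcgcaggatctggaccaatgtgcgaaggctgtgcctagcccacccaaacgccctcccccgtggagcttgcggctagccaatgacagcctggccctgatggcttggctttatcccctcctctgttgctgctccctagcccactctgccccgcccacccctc

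Syn1: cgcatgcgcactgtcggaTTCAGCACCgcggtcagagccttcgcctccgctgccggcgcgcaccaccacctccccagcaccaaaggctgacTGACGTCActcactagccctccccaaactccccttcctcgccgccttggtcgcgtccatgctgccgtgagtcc

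In the Syt6 window TAATTA began 224, CACGTG 26 and GGGGCGGGG 19 bases before the start. The Syn1 window held TTCAGCACC 232 and TGACGTCA 159 bases before the start, and Syn1 was the only member with either motif among the 34 members (46 windows) found in the promoter table. Over all 32851 windows of 250 bases, TTCAGCACC was present in 0.301%, TGACGTCA in 1.55%, CACGTG in 6.02%, TAATTA in 4.84% and GGGGCGGGG in 10.4%. The Sv2b and Synpr windows shown held none of the 5. A match describes the letters of the window and says nothing of whether a factor binds there.

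Across the 72 neurons the release genes ranged from universal to absent. Snap25 was detected in every neuron. Including it, 6 members reached 10 CPM in 90% of neurons or more (Snap25, Syt4, Cplx1, Rab3a, Syt11 and Vamp2), 22 members in at least 50%, 18 in fewer than 50% and 4 in none. Among all 11351 genes that reached 10 CPM in at least 5 neurons, 48.1% passed the 50% level. Of the 44 members, 37 reached 10 CPM in at least 5 neurons. Together the 44 genes took a median of 1.04% of a neuron's counts, with a range from 0.0264 to 1.501%. A neuron had between 5 and 32 members detected (median 24.5).

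**Figure D1:**
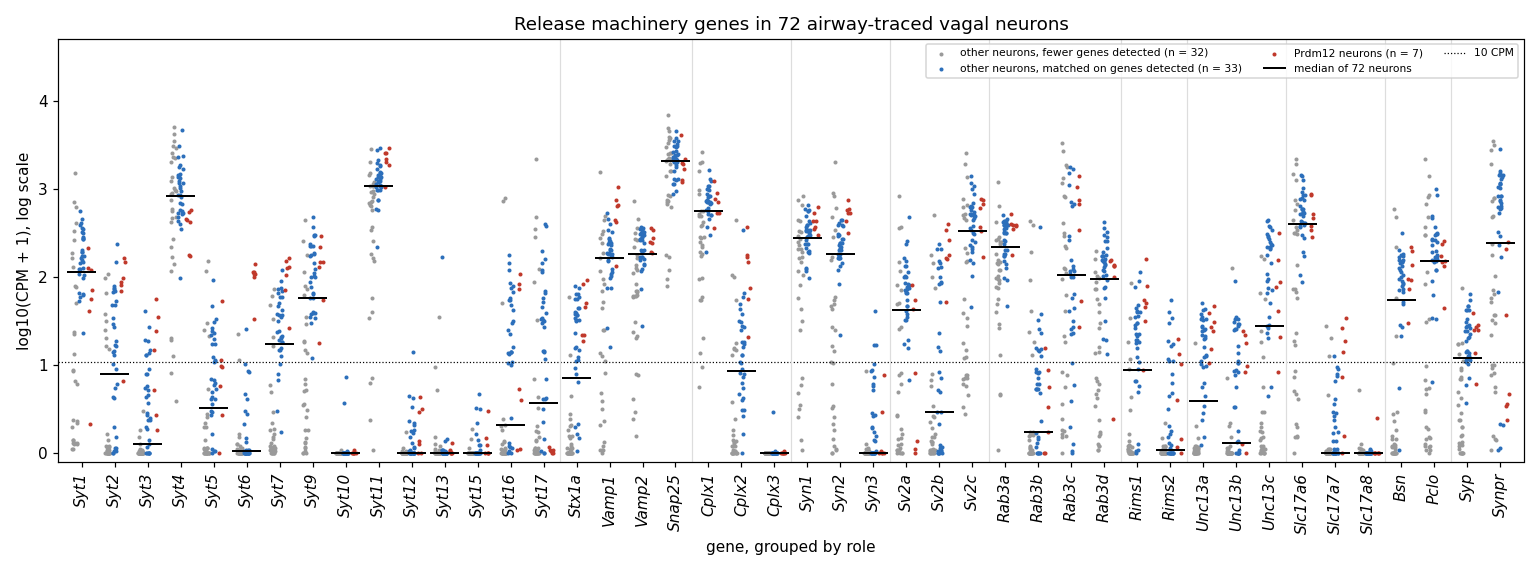
Each point is 1 gene in 1 of 72 neurons, on a log10(CPM + 1) axis, with genes grouped by role. Grey points are other neurons with fewer genes detected, blue points matched neurons and red points Prdm12 neurons. Black bars are medians over 72 neurons and the dotted line is 10 CPM. Snap25 lies above the line in every neuron, whereas Syt10, Syt15, Cplx3 and Slc17a8 lie below it throughout.

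Genes are compared per kilobase of exon, which assumes even coverage along the transcript; whether the amplification favoured 1 end of the transcripts was not tested, and the ranking and the family leads below rest on it. On this scale the highest member was Snap25, the plasma membrane partner of the fusion complex, at a median of 305.5 CPM per kb (quartiles 186 and 383). Its level was 77.4 CPM in the lowest neuron, 2075 in the median neuron and 6908 in the highest. Cplx1 followed at 258 CPM per kb, Syt4 at 212 and Syt11 at 207, and the quartiles of these 4 genes overlapped. Rab3a (99.1), Syn1 (82.97), Slc17a6 (73.1) and Vamp2 (47.6 CPM per kb) came next. The gene order thus places 1 fusion protein, 1 complexin and 2 synaptotagmins that are not fast calcium sensors at the top.

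Of the fusion proteins, Vamp2 was detected in 66 of 72 neurons (91.7%, 82.7 to 96.9%) with a median of 181 CPM, and Vamp1 in 60 of 72 (83.3%, 72.7 to 91.1%) with a median of 165 CPM. Vamp2 is the main vesicle synaptobrevin of the forebrain, and Vamp1 is prominent in spinal cord and brainstem. Both were detected in 58 neurons. Per kilobase Vamp2 led in 56 of 69 neurons (81.2%, 69.9 to 89.6%), but with no length term its share was 55.1%, since the Vamp1 exons are longer. Stx1a, the plasma membrane syntaxin, was detected in only 34 of 72 neurons (47.2%, 35.3 to 59.4%) at a median of 6.23 CPM and a highest level of 92.0 CPM, far below its partner Snap25 also per kilobase (2.34 against 305.5 CPM per kb).

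The complexins were nearly a single-gene family here. Cplx1 was detected in 70 of 72 neurons, with 4.61 CPM in the lowest, 564 in the median and 2589 in the highest neuron. It led in 71 of 71 neurons (100%, 94.9 to 100%) and made up a median of 99.4% of the summed complexin counts per kilobase. Cplx2 was detected in 33 of 72 neurons and never led, although it made up 45.1% of the family in 1 neuron. Cplx3, a complexin of ribbon synapses, reached 1.94 CPM at most, and 0 of 72 neurons at 10 CPM allows a share of up to 4.17% (3 neurons of 72; the exact interval ends at 4.99%).

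Synaptotagmins split into a pair present in nearly all neurons and many that were patchy. Syt4, which binds calcium weakly and sits largely on dense-core and post-Golgi vesicles, was detected in 70 of 72 neurons (2.93, 824 and 5012 CPM in the lowest, median and highest). Syt11, its close relative, was detected in 68 of 72 (0.0812, 1076 and 2930 CPM). One or other of these led the summed counts per kilobase of all 15 synaptotagmins in nearly every neuron: Syt4 in 40 of 72 (55.6%, 43.4 to 67.3%) and Syt11 in 30 of 72 (41.7%, 30.2 to 53.9%). Syt17 led in the remaining 2 neurons. With no length term the order turned, with Syt11 leading in 51.4% and Syt4 in 45.8% of neurons.

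The fast sensors for synchronous release are Syt1, Syt2 and Syt9. Syt1 was detected in 54 of 72 neurons (median 114 CPM, highest 1499), Syt9 in 53 of 72 (57.01 and 483 CPM) and Syt2 in 34 of 72 (6.86 and 234 CPM). Most neurons held a mixture: 51 of 72 had at least 2 of the 3, and 1 gene held at least 80% of the sum of the 3 in only 21 of 63. Which gene leads depends on the length term. Per kilobase Syt9 led in 36 of 63 neurons (57.1%, 44.05 to 69.5%) and Syt1 in 23 of 63 (36.5%, 24.7 to 49.6%), whereas with no length term Syt1 led in 55.6% and Syt9 in 34.9%, and by the longest transcript Syt1 led in 50.8% and Syt9 in 41.27%. In the 33 matched neurons Syt1 and Syt9 were both detected in all 33.

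Among the other synaptotagmins, Syt7, a high-affinity sensor for slow and asynchronous release, was detected in 41 of 72 neurons (median 16.5 CPM). Syt17 was detected in 30 of 72 but reached 2196 CPM in 1 neuron, which held 38.9% of its summed CPM. Syt16 was detected in 28, Syt5 in 21, Syt3 in 12 and Syt6 in 10 of 72. Syt13 was detected in 2, Syt12 in 1, and Syt10 and Syt15 in no neuron. Thus 4 of the 15 synaptotagmins were detected in at most 2 neurons. Syt4, Syt6, Syt7 and Syt12 share 14.5%, 8.67%, 5.13% and 17.2% of their exon bases with genes on the opposite strand. The strand setting of the counting is not given in the sources used here, so reads of either gene cannot be told apart there.

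Among the vesicle proteins, Syn1, a phosphoprotein that tethers vesicles to actin and to each other, was detected in 64 of 72 neurons (median 274 CPM) and Syn2 in 58 of 72 (median 180 CPM). Both were detected in every matched neuron. Syn1 led per kilobase in 60 of 66 neurons (90.9%, 81.3 to 96.6%) with a median share of 76.4%. With no length term its share of neurons was 66.7%. Syn3 was detected in 3 of 72, and 14.1% of its exon bases overlap Timp3 on the other strand.

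The SV2 proteins are vesicle glycoproteins that bind synaptotagmin and serve as botulinum toxin receptors. Sv2c, the form with the most restricted distribution in brain, was the leading one: detected in 62 of 72 neurons (1.76, 335 and 2537 CPM in the lowest, median and highest), it led in 55 of 65 neurons (84.6%, 73.5 to 92.4%). Sv2a, the form found in nearly all brain synapses, was detected in 46 of 72 (median 41.1 CPM) and led in 10 of 65. Sv2b was detected in 27 of 72 and led in none, but where detected its median was 141 CPM, so neurons differed widely, with quartiles of 0.0958 and 90.5 CPM.

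Of the Rab3 GTPases, which mark vesicles for docking, Rab3a was detected in 69 of 72 neurons (median 221 CPM), Rab3d in 55 (93.9 CPM) and Rab3c in 54 (104 CPM, highest 3336), and Rab3b in 19. Rab3a led per kilobase in 56 of 70 neurons (80%, 68.7 to 88.6%), and with no length term in 48.6%, with Rab3c then leading in 40%. At least 2 Rab3 genes were detected in 65 of 72 neurons. Rab3c had quartiles of 15.5 and 646 CPM, a wider range in CPM than the quartiles of the other 3 Rab3 genes.

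Synpr (synaptoporin) and Syp (synaptophysin) are related membrane proteins of the vesicle. Synpr, better known from hippocampal mossy fibres, was detected in 53 of 72 neurons, with 0.0812, 242 and 3511 CPM in the lowest, median and highest. Syp, widely used as a general synapse marker, was detected in 40 of 72 with a median of 11.2 CPM and at most 73.8 CPM. Synpr led per kilobase in 52 of 63 neurons (82.5%, 70.9 to 91.0%) at a median share of 94.2%. In these airway neurons the transcript of the general marker was thus the minor one of the pair, although 16.8% of Syp exon bases overlap an antisense gene.

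Active zone genes ranged from 52 to 12 of 72 neurons. Pclo and Bsn, the giant scaffolds Piccolo and Bassoon, were found in 52 and 43 of 72 neurons (medians 152 and 53.9 CPM). Unc13c was found in 44, Unc13a in 29 and Unc13b in 18 of 72; these encode Munc13 priming factors, of which Unc13a serves most forebrain synapses and Unc13c is known from cerebellum. Unc13c led in 43 of 48 neurons (89.6%, 77.3 to 96.5%) at a median share of 91.1%. Rims1, which links vesicles to calcium channels, was found in 33 of 72 and led in 34 of 37 neurons that entered, and Rims2 in 12 of 72. The neurons that entered here are mostly those with many genes detected, since only 4 of the 32 neurons with fewer genes had a summed RIM level of 10 CPM.

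The vesicular glutamate transporters, which load vesicles with transmitter, were 1 gene in practice. Slc17a6 (VGLUT2) was detected in 61 of 72 neurons (84.7%, 74.3 to 92.1%), with a median of 395 and a highest level of 2198 CPM, and led in 61 of 61 (94.1 to 100%). Slc17a7 (VGLUT1) was detected in 8 of 72 at no more than 33.4 CPM. Slc17a8 (VGLUT3) reached 4.19 CPM at most and 10 CPM in no neuron. Of 9 genes for other transmitters, 5 (Slc32a1, Gad1, Gad2, Slc6a5 and Chat) were likewise detected in 0 of 72 neurons, and Slc18a3, the vesicular acetylcholine transporter, in 1 of 72. The choline transporter Slc5a7 was detected in 18 of 72 and reached 265 CPM, and it was found in 0 of 7 Prdm12 neurons and in 13 of 33 neurons of the matched class. These 7 genes are named here after their values were seen.

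Over all 11 families, 9 had 1 gene that led per kilobase in at least 75% of neurons, the exceptions being the fast sensors and the full set of synaptotagmins. With no length term 6 families met this level and with the longest transcript 8.

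**Figure D2:**
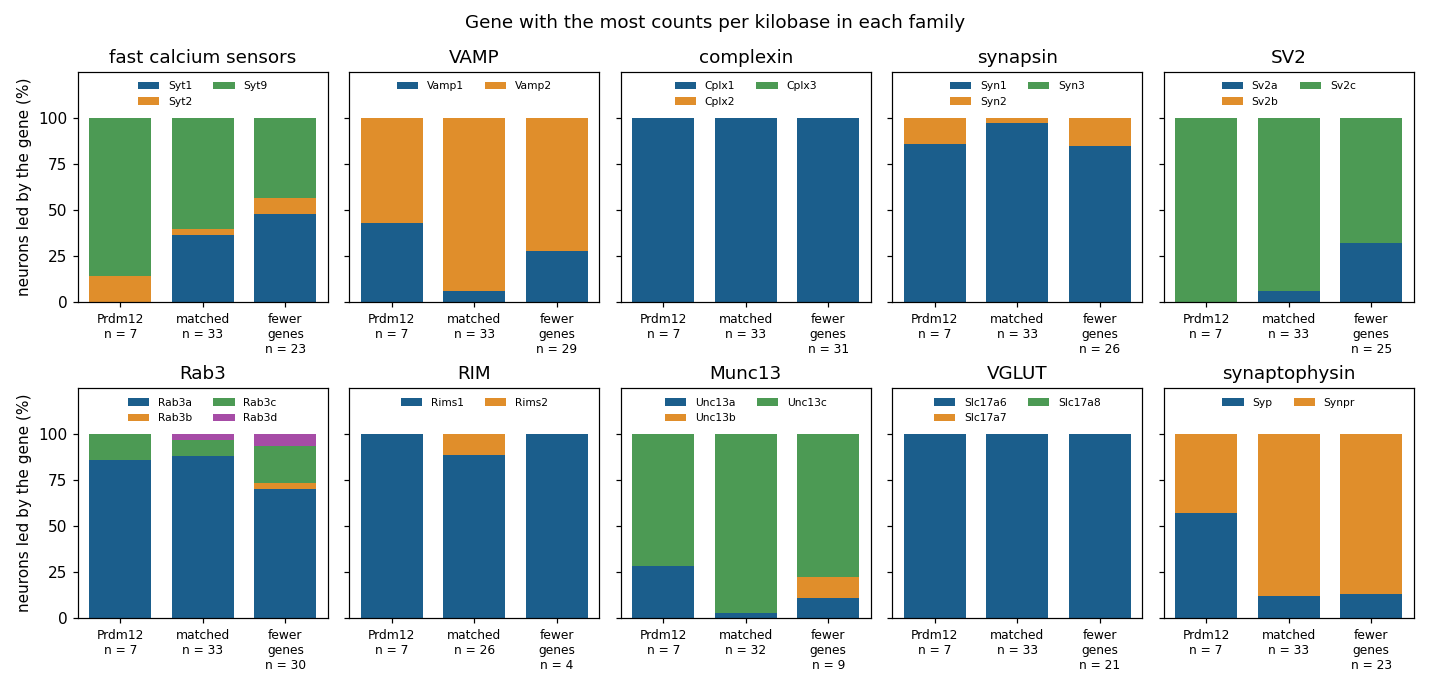
Bars give the percent of neurons in which each gene has the most counts per kilobase of exon in its family, for Prdm12, matched and fewer-gene neurons whose family sum reached 10 CPM (n under each bar). Complexins and glutamate transporters are led by Cplx1 and Slc17a6 in all 3 classes, while Vamp1 and Syp lead in more of the Prdm12 bars (3 of 7 and 4 of 7) than of the matched bars (2 of 33 and 4 of 33).

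Detection of the release genes moved with the number of genes detected in the neuron. Spearman's rho between members detected and genes detected was 0.94 over 72 neurons and 0.75 over the 33 matched neurons, a description of points that share a library and its amplification. Matched neurons had 22 to 32 members (median 29) and neurons with fewer genes 5 to 24 (median 15). The members are among the genes counted and the classes are drawn by that count, so a higher share in matched neurons is built in. The share of neurons was at least 40 points higher in matched neurons for 15 members, where 53% of all genes tested were that much higher, and lower for none of the members, against 0.0881% of all genes. The median difference was 31.3 points for the members tested and 42.2 points for all genes tested.

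The release genes most often retained by the neurons with few genes were the 5 that rank highest per kilobase. Median CPM did not give the same order. Over the 72 neurons Slc17a6, Sv2c and Synpr had higher medians than Rab3a (395, 335 and 242 against 221 CPM) but were detected in fewer (61, 62 and 53 against 69). Snap25 was detected in 32 of 32 of them, Syt4 and Cplx1 in 30, Rab3a in 29 and Syt11 in 28 of 32. At the other end, Bsn was detected in 31 of 33 matched neurons and 5 of 32 with fewer genes, Unc13c in 31 of 33 and 7 of 32, Stx1a in 25 of 33 and 2 of 32, and Unc13a in 22 of 33 and 1 of 32. The summed level of the satellite glia markers was higher in the neurons with fewer genes (median 2867 CPM, quartiles 1473 and 7092) than in matched ones (1447, quartiles 699 and 2580), and its part in the missing members was not tested. Less RNA in the cell and a less complete library cannot be told apart.

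**Figure D3:**
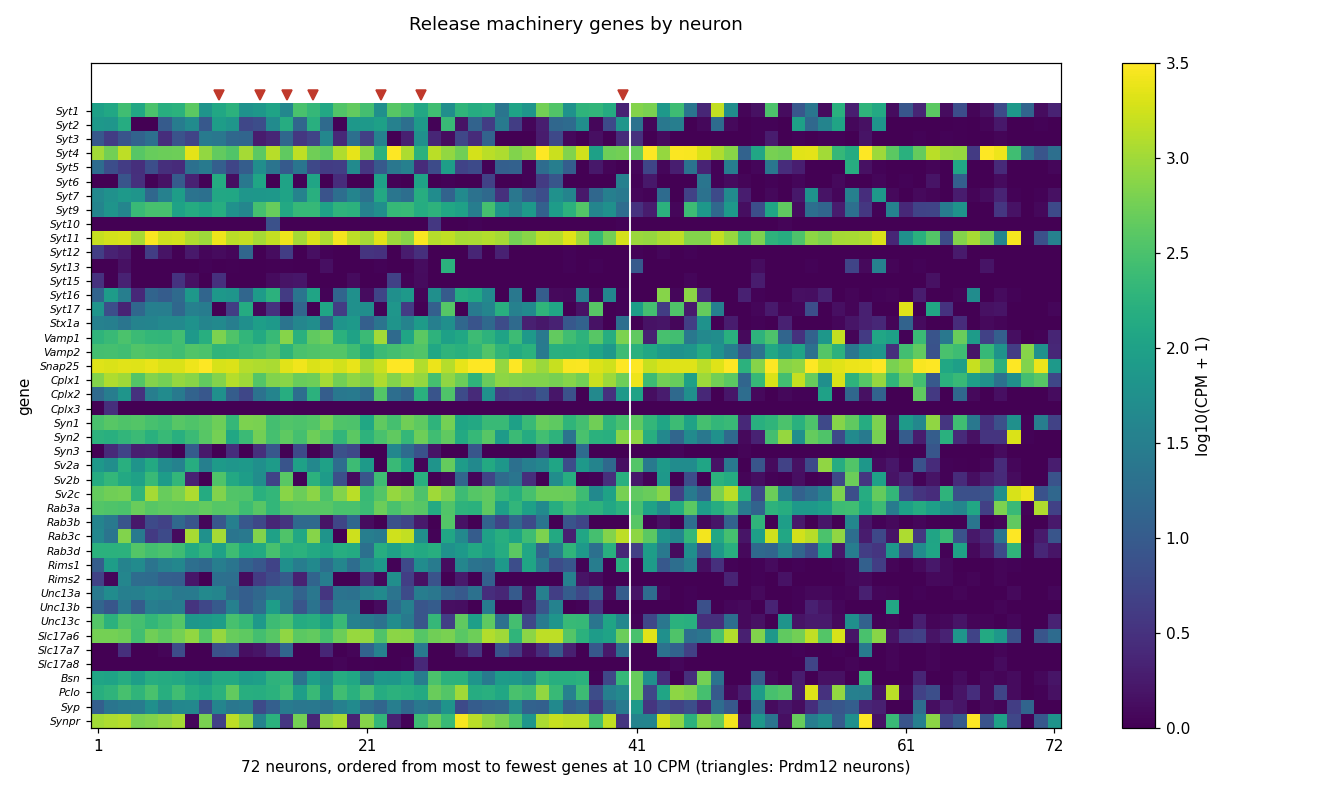
Rows are the 44 genes and columns the 72 neurons, ordered from most to fewest genes at 10 CPM, with colour giving log10(CPM + 1). Triangles mark the 7 Prdm12 neurons and the white line the limit of 4722 genes. To its right Snap25, Syt4 and Syt11 stay bright while Bsn, Unc13a and Stx1a go dark. Syt6 is bright under the triangles and dark in most other columns.

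The Prdm12 neurons were therefore set against the 33 matched neurons. The 7 had from 25 to 32 members detected (median 30) and the matched neurons 22 to 32 (median 29), so the numbers of release genes overlapped and the differences lay in single genes. Detection differed by at least 40 points for 7 members. It was higher in Prdm12 neurons for Syt6, Cplx2, Sv2b and Slc17a7, a difference that 2.79% of all genes tested showed, and lower for Syt17, Sv2a and Synpr, which 2.04% of all genes showed. Of 44 members 37 entered these counts by reaching 10 CPM in at least 5 neurons. Syt6 and Slc17a7 entered largely through the Prdm12 neurons themselves (7 of 10 and 4 of 8 neurons with the gene), so nothing is drawn from the number called. For all members tested the median difference was 0.0 points, as for all genes tested.

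Syt6 separated the classes completely at the Prdm12 limit of 10 CPM. Its difference in detection was 96.97 points there. With Prdm12 taken at 5 CPM it was 82.4 points, because the added neuron AM086 (9.13 CPM of Prdm12, 3793 genes) did not reach 10 CPM of Syt6. Scaling by trimmed means, which also brings an eighth neuron over the Prdm12 limit, gave 82.7 points. A relative of Syt3 and Syt10, it is best known from the sperm acrosome reaction, and it lies at chr3:103575231-103645569 (GRCm38). The 7 Prdm12 neurons had 32.4, 99.5, 107, 108, 112, 112 and 140 CPM. In matched neurons it reached 24.6 CPM at most with a median of 0.0713, and it was detected in 1 of 33 (3.03%, 0.0767 to 15.8%) against 7 of 7 (100%, 59.04 to 100%). The ranges did not overlap, which held in this direction for 0.0969% of all genes tested and for no other member. In the lower direction it held for 0.00881% of all genes and no member. Prdm12, which sets the classes, is among the genes tested, and Syt6 entered largely through the Prdm12 neurons. Nothing is therefore drawn from these shares. Within the runs of neuron identifiers, it was detected in 2 of 2 against 0 of 9 in the first and 5 of 5 against 1 of 20 in the third. The lowest of the 7 was AM304, which also had the fewest genes.

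**Figure D4:**
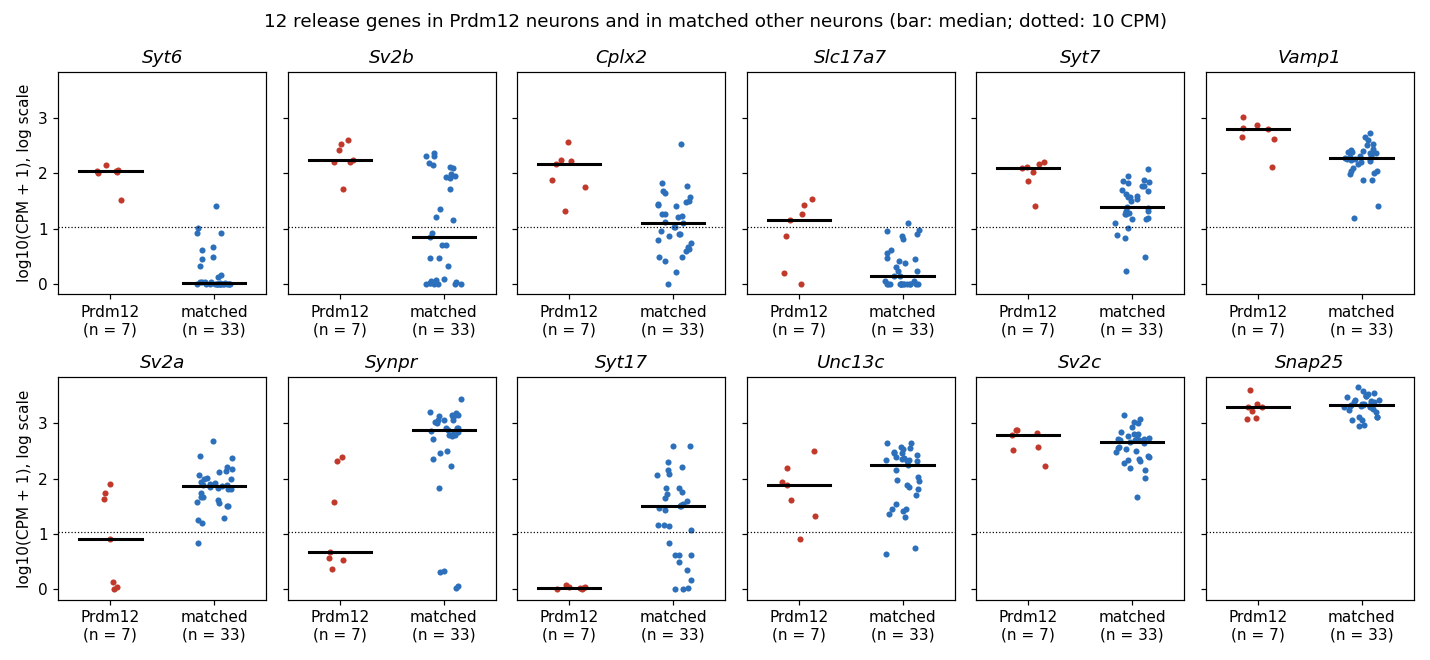
Points are single neurons on a log10(CPM + 1) axis for 12 release genes, with Prdm12 neurons in red (n = 7) and matched neurons in blue (n = 33), medians as bars and 10 CPM dotted. Syt6 shows no overlap between the classes, and Snap25 and Sv2c largely share their ranges. Synpr is split in both classes: 4 of 7 and 4 of 33 neurons lie below the line.

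The SV2 family shifted from Sv2a to Sv2b while Sv2c stayed in front. Sv2b (chr7:75114894-75309262) was at 50.9 to 401 CPM in the 7 Prdm12 neurons (median 177) and at 0 to 237 CPM in matched neurons (median 6.19). The matched neurons divided into 18 below 10 CPM, at most 7.42, and 15 from 13.3 CPM upward, and the ranges overlapped. Sv2a (chr3:96181151-96195521) went the other way, with 0 to 79.2 CPM (median 7.17) in Prdm12 neurons and 5.82 to 473 CPM (median 72.7) in matched ones, detected in 3 of 7 against 32 of 33. Per kilobase Sv2b made up a median of 31.7% of the SV2 sum in Prdm12 neurons and 1.64% in matched neurons, Sv2a 1.23% and 26.4%, and Sv2c 60.8% and 63.8%. Sv2b was 54.5 points apart overall but 12.5 points without the third run of identifiers. That setting leaves 2 Prdm12 neurons and raises the matching limit to 8091 genes. Within the first run Sv2b was detected in 2 of 2 Prdm12 neurons against 5 of 9 matched ones. Within the third it was 5 of 5 against 7 of 20.

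Cplx2 (chr13:54371349-54383917), the complexin that accompanies Cplx1 in many brain synapses, was at 19.8 to 367 CPM in Prdm12 neurons (median 149) and at 0 to 342 CPM in matched ones (median 11.95), detected in 7 of 7 against 17 of 33. The ranges overlapped, but only 1 matched neuron exceeded the Prdm12 median. Cplx1 did not separate the classes (medians 710 and 706 CPM). The difference in Cplx2 detection was 48.5 points. It was 26.3 points without AM304 and its looser matching limit, and 33.3 points against other neurons with at least 7000 genes. Without the third run of identifiers, which again raises that limit, it was 12.5 points. Within that run it was 5 of 5 against 6 of 20, and within the first 2 of 2 against 7 of 9.

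Synpr (chr14:13284780-13616340) was lower in Prdm12 neurons, at 1.37 to 249 CPM (median 3.71) against 0.0848 to 2792 CPM (median 746). Neither class was uniform. Among matched neurons 4 lay at or below 1.17 CPM and 29 at or above 67.5 CPM, with none between, and among Prdm12 neurons AM228 and AM303 had 209 and 249 CPM, AM296 36.2 CPM and the other 4 at most 3.71 CPM. All 7 were below the matched median. Detection in 3 of 7 against 29 of 33 is a difference of -45.02 points. It was -37.9 points without AM011, AM013 or AM237 and -28.9 points without AM304 and its looser matching limit, under the 40 points of the rule. Within the third run of identifiers detection was 3 of 5 against 16 of 20. Syp led the pair in 4 of 7 Prdm12 neurons and 4 of 33 matched ones, while Syp itself had medians of 24.1 and 19.7 CPM.

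Syt17 (chr7:118380717-118448222), an unusual synaptotagmin without a membrane-spanning segment, was at no more than 0.188 CPM in any Prdm12 neuron. In matched neurons its median was 30.9 CPM and its highest level 394 CPM, and it was detected in 23 of 33 (69.7%, 51.3 to 84.4%) against 0 of 7, where 7 neurons allow a share of up to 40.96% by the exact interval. The ranges overlapped, because 3 matched neurons were also no higher than the highest Prdm12 neuron. In the first run of identifiers it was 0 of 2 against 6 of 9, and in the third 0 of 5 against 16 of 20.

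Slc17a7 (chr7:45163949-45176142) was detected in 4 of 7 Prdm12 neurons and 1 of 33 matched ones, at medians of 13.2 and 0.391 CPM. Its highest level, 33.4 CPM, was small beside Slc17a6, which was detected in every neuron of both classes (medians 461 and 536 CPM), and Slc17a7 made up at most 8.94% of the transporter sum per kilobase in a Prdm12 neuron. Scaling by trimmed means brings an eighth neuron over the Prdm12 limit and changes the matched class. It reduced the difference in detection from 54.1 to 32.7 points. Against the 65 other neurons, including those with few genes, it was 4 of 7 against 4 of 65.

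Levels were compared by a separate rule, whose counts cannot be set against those of detection. By medians, taking log2(median CPM + 10) at least 2-fold apart, 9 members were higher in Prdm12 neurons (4.43% of all genes tested) and 6 lower (3.26%). Syt6 and Slc17a7 are among the 9 and entered largely through the Prdm12 neurons, so nothing is drawn from the number called. Besides those above, the higher ones were Vamp1, Syt7, Syt2, Syn2 and Rab3c. Inside the matched class, Spearman's rho with genes detected was 0.49 for Sv2b, 0.47 for Syt7 and 0.45 for Cplx2. It was 0.24 for Syt2, 0.15 for Vamp1, 0.06 for Syn2 and -0.34 for Rab3c. The part of genes detected in these differences was not tested, and no stricter limit was applied to the medians. Vamp1 was at 132 to 1046 CPM (median 636) against 14.97 to 530 CPM (median 188), with 6 of 7 above the matched median and no matched neuron above the Prdm12 median, and it led Vamp2 per kilobase in 3 of 7 against 2 of 33 neurons. Vamp2 was at medians of 251 and 262 CPM. Syt7 was at 25.3 to 161 against 0.735 to 120 CPM (medians 125.04 and 23.5), and all 7 exceeded the matched median. Syn2 was at 311 to 752 against 20.97 to 448 CPM (medians 533 and 220), again with all 7 above the matched median.

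Syt2, the fast sensor of spinal and brainstem synapses, had medians of 86.5 and 13.6 CPM, and AM296 at 5.63 CPM was the exception among the 7. Rab3c had medians of 675 and 98.9 CPM, with wide overlap: 26.2 to 1407 against 0 to 1763 CPM. The lower genes were Syt1 (medians 70.2 and 171 CPM), Syt4 (436 and 1028 CPM) and Unc13c (76.4 and 175 CPM). Syt1 was at 1.14 CPM in AM304 and at 214 CPM in AM013, and 1 of 7 lay above the matched median. Syt4 was at 172 to 577 CPM in the 7, all below the matched median, and 23 of 33 matched neurons were above all of them.

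Syt11 had medians of 2172 and 1236 CPM, short of the 2-fold rule. It led all synaptotagmins per kilobase in 7 of 7 Prdm12 neurons (100%, 59.04 to 100%), while in matched neurons Syt4 led in 18, Syt11 in 14 and Syt17 in 1 of 33. Among the fast sensors Syt9 led in 6 and Syt2 in 1 of 7, and Syt1, which led in 12 of 33 matched neurons, in none. The median share of Syt2 in the fast sensor sum was 20.8% in Prdm12 neurons and 3.31% in matched ones.

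Several members gave close medians in both classes: Snap25 (1932 and 2152 CPM), Cplx1, Vamp2, Bsn (92.95 and 105 CPM), Pclo (150 and 174 CPM), Rab3d (134 and 150 CPM) and Slc17a6. Their ranges overlapped, and 7 neurons cannot show that these levels are equal. The satellite glia sum had medians of 1852 CPM (1457 to 4020) and 1447 CPM (179 to 10873) and the Schwann cell sum 706 and 756 CPM, so the Prdm12 range lay inside the matched range for both lists. The fibroblast sum had medians of 52.6 and 28.6 CPM. Endothelial and leukocyte markers had medians of 0.0 and 0.193 CPM in Prdm12 neurons. Among the epithelial markers Cdh1 was detected in 1 of 7 against 18 of 33, at a summed median of 0.578 against 11.5 CPM, and Epcam, Krt8 and Krt18 reached 10 CPM in no neuron. The part of these other markers in the differences was not tested.

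The 7 Prdm12 neurons were not alike. AM228 and AM303, singled out after their values were seen, had the highest Synpr (209 and 249 CPM), the lowest Rab3c (26.2 and 52.5 CPM), Syt4 (176 and 172 CPM) and Unc13c (20.1 and 7.32 CPM), Sv2a at 0 and 0.128 CPM, and the highest Slc17a7 (33.4 and 25.8 CPM). The other 5 had Rab3c of at least 338 CPM. AM296 had the lowest Vamp1 (132 CPM), Sv2b (50.9 CPM), Cplx2 (19.8 CPM) and Syt11 (1058 CPM) of the 7 and the highest Syt9 (292 CPM). Both patterns are descriptions of single libraries.

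Against all 65 other neurons the picture mixes class with genes detected. Detection was at least 40 points higher for 11 members, where 18.7% of all genes were, and lower for Syt17 alone, against 0.511% of all genes. Of the 11, Syt2, Syt3, Syt7, Stx1a, Rims1, Unc13a and Bsn did not reach 40 points against the matched neurons. By medians 18 members were higher (28.4% of all genes) and 3 lower (0.969%). Both higher counts include Syt6 and Slc17a7, so nothing is drawn from the numbers called. The members called in both comparisons were Syt6 (7 of 7 against 3 of 65), Sv2b (20 of 65), Cplx2 (26 of 65), Slc17a7 and, in the lower direction, Syt17 (0 of 7 against 30 of 65).

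Within the matched neurons, release genes varied together only in part. Over 33 neurons, 21 of 595 pairs of the 35 members described had Spearman's rho above 0.5, 6 pairs were below -0.5 and the median was 0.13. Pairs of other genes were not counted, so these numbers have no background beside them. The highest was Vamp2 with Rab3a (0.77), followed by Stx1a with Vamp2 (0.61) and Bsn with Pclo (0.60). Vamp2, Rab3a and Stx1a also ran with the number of genes detected (0.66, 0.69 and 0.63), whereas Bsn and Pclo did not (0.10 each). The most negative pairs were Syn2 with Sv2b and Syt4 with Sv2b (both -0.55), Syt17 with Unc13c (-0.55), Syt11 with Rab3c (-0.54) and Syt16 with Syt17 (-0.53). Within families rho was -0.01 for Vamp1 with Vamp2, 0.13 for Syt1 with Syt9, 0.02 for Sv2b with Sv2c, 0.32 for Syn1 with Syn2, 0.45 for both Sv2a with Sv2c and Rab3a with Rab3d, and -0.39 for Rab3c with Rab3d. All these points share a library, its depth and its amplification.

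Neighbouring parts of the pathway are read beside the 48.1% of all genes tested that passed the 50% level. That share counts only genes at 10 CPM in at least 5 neurons, so the number of each list that entered this way is given. Of 26 further fusion, priming and calcium sensor genes 21 entered and 14 passed the 50% level. Among them was Napb, which helps take spent fusion complexes apart, in 68 of 72. The figure was 9 of 14 for other active zone genes (13 entered), with Apba1 in 65 and Rims3 in 58. It was 16 of 17 for vesicle membrane and recycling genes (17 entered), with the proton pump subunit Atp6v1b2 in 69 and Dnajc5 and Dnm3 in 66. Dense-core granule genes gave 10 of 11 (10 entered), with the peptide-processing enzyme Cpe in 68 and Scg3 in 66 of 72. None of the 9 genes of other transmitters (3 entered) reached 50%. The highest were the monoamine transporter Slc18a2 in 28 and the catecholamine enzyme Th in 22 of 72.

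Between Prdm12 and matched neurons 2 of these 77 listed genes passed 40 points, 1 higher and 1 lower, where 2.79% and 2.04% of all genes tested did. Those shares again count only genes at 10 CPM in at least 5 neurons, which not all of the 77 were. Rph3a (rabphilin), a Rab3 effector, was detected in 7 of 7 against 12 of 33 neurons, at 40.7 to 266 CPM (median 144) against 0 to 69.5 CPM (median 4.49). Its ranges overlapped. Th was detected in 0 of 7 against 17 of 33, with at most 1.68 CPM in a Prdm12 neuron and up to 1184 CPM in a matched one.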

How the data were processed

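The authors deposited 1 table of unscaled read counts, with 84 single neurons as columns and 50686 Ensembl genes of the mouse as rows. They used featureCounts to assign reads, per the submitters' processing notes, which give no version. What aligned the reads, to which build and annotation, and with which strand setting was not given in the sources used here. Per the labels' protocols the mRNA was amplified before sequencing (76 bases). The labels speak of no molecular identifiers, so PCR copies cannot be removed. Symbols, positions and exon lengths came from GENCODE M21 (GRCm38), which need not be the annotation behind the counts, and 50462 identifiers matched. The other 224 held at most 0.215% of the counts of a neuron.

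The counts were scaled to CPM over neurons with at least 5000000 counts. Classes were Prdm12 at 10 CPM or more, and the others divided at 4722 genes detected. With no animal named, shares with exact intervals (95%), medians and fixed rules of size (40 points in the share, or medians 2-fold apart after adding 10 CPM) replaced tests. Family leads used counts per kilobase of the union of exons, in neurons whose family sum reached 10 CPM. Named genes were all 44 members, with full values for those that led a family, passed the size rule or had the extreme shares of their role, and from each further list the 2 with the highest share and any past the rule. A result that rests on an item withheld from this text is not reported here. Members, lists and rules were chosen with earlier results of these data known, among them those for Syt6, Slc17a7 and Snap25. Neuron identifiers fall into 3 runs parted by gaps of over 30 (16, 11 and 57 neurons); the labels do not call these batches.

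No pair of neurons had identical counts. Alternatives covered the neuron filter, TMM scaling (edgeR 4.0.16 in R 4.3.3, used for scaling factors only), thinning to equal depth, detection at 1 count or 50 CPM, the size rule, the Prdm12 limit, the length term, and leaving out each Prdm12 neuron or run of identifiers. Steps were tested on simulated data. Software was scipy 1.17.1, pandas 2.3.3, numpy 2.4.6 and matplotlib 3.10.9 under Python 3.11.15, with seed 1.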

Additional observations from a re-analysis of the deposited data

Results flagged for a closer look

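The 12 neurons left out for depth entered no comparison of the report, only the alternative that keeps all 84 neurons. Snap25 reached 10 CPM in 11 of these 12, with a median of 830 CPM and a highest level of 13878 CPM, so a transcript of the release machinery is present in data outside the main measurement. Syt4 and Syt11 were also detected in 11 of 12, Slc17a6 in 9, Rab3a and Synpr in 8 and Cplx1 in 7 of 12, whereas Stx1a, Syt6, Rims1, Unc13a and Slc17a7 were detected in none.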

How the results depend on the processing

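The counts of members were stable to the neuron filter, thinning and TMM scaling within 1.5 times, and moved with the detection level and the size rule. At 1 count, 36 members were detected in at least 50% of neurons (22 at 10 CPM), and the members past 40 points numbered 3 against all other neurons (12 at 10 CPM) and 1, Syt6, against matched neurons (7 at 10 CPM). Against all others there were 6 at 50 CPM, 6 with a rule of 50 points, 21 by medians and 7 with Prdm12 neurons taken at 5 CPM. Against matched neurons there were 15 by medians. At a level of 90% in place of 75%, 4 families were led by 1 gene (9 at 75%). Leaving out each Prdm12 neuron in turn gave 11 to 14 members against all others and 5 to 9 against matched neurons, the lowest without AM304 and the highest without AM296. Without AM304 the matching limit also rises. Of the 7 members called against matched neurons, Syt6 stayed past 40 points under every setting. At 50 CPM Syt17, Sv2a and Slc17a7 did not, and with Prdm12 taken at 5 CPM Cplx2 and Synpr did not. The limit of 5 CPM adds AM086, with 3793 genes, to the Prdm12 neurons, which lowers the matching limit and enlarges the matched class. The limit of 7000 genes was chosen after seeing the data and gave 6 of the 7 (all but Cplx2). The causes of these shifts were not tested. No difference in share called against matched neurons changed sign, but the leading gene did with no length term: Syt1 (55.6%) over Syt9 (34.9%) and Syt11 (51.4%) over Syt4 (45.8%). No paired analysis was possible because the neurons form 1 labelled group with no numbers shared between groups. Depth limits the reading of low genes: 3 counts are 0.446 CPM in the shallowest neuron kept and 0.145 CPM in the deepest, and 7 Prdm12 neurons leave intervals as wide as 59.04 to 100% even where all have the gene.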
